A study of Rattus norvegicus with 24 samples.

Results

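Il1b (ENSRNOG00000004649), Il6 (ENSRNOG00000010278) and Ccl2 (ENSRNOG00000007159) are 3 of the 32883 Ensembl gene IDs in a rat heart count table, and all 3 were among the 14540 genes with enough reads to be tested. They were chosen as inflammatory mediators of the infarcted heart, by gene ID. The pairing of these IDs with their symbols came with that choice, since the count table and the reference tables used here pair no Ensembl ID with a symbol. RNA was sequenced from the left ventricle of rats of the outbred strain Sprague Dawley at day 7 after myocardial infarction (MI, in which heart muscle dies because its blood supply is cut off) and patch implantation. The Microneedle patch group (6 libraries) had an infarct covered by a patch whose microneedles lock it into the tissue, and the Sutured patch group (6 libraries) an infarct with a patch held by stitches. The MI group (6 libraries) had an infarct and no patch, and the Sham group (6 libraries) carried the label of a mock operation. Tissue of the infarct region was taken; where the Sham samples were cut from is not stated, and the labels give neither the age of the rats nor the material of the patches. They also do not say that each library came from a separate rat, so that p-values reflect library-to-library spread, which may in part be technical. The label of heart muscle was not checked against marker genes, because the IDs carry no symbols.

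Interleukin-1 beta, the product of Il1b, is made as an inactive precursor, mainly by monocytes, macrophages and neutrophils, and is cut to its active form by caspase-1 in the inflammasome. It acts through the interleukin-1 receptor and NF-kB to switch on further cytokine and chemokine genes. Interleukin-6, from Il6, signals through its receptor and the shared subunit gp130 to JAK kinases and STAT3, and Ccl2 encodes monocyte chemoattractant protein 1, which draws monocytes bearing the receptor Ccr2 out of the blood. After a coronary occlusion these factors belong to the inflammatory phase of infarct healing, which precedes scar formation.

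Because all 3 genes were higher in the patch groups than in MI, the stretch of 250 bases before the RefSeq transcription start (assembly GRCr8) is shown for the genes that matched the promoter table by symbol, which were 2 of the 3; the unmatched gene was Ccl2. Capitals mark every match to the motifs searched on both strands, 5′ to 3′ on the gene's strand.
Il1b, chr3:137036582-137036831, minus strand: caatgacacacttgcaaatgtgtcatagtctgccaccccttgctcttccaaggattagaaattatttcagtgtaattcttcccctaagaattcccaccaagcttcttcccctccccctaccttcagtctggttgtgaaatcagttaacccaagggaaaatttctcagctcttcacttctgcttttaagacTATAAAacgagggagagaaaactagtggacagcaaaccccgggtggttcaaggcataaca
Il6, chr4:5894576-5894825, minus strand: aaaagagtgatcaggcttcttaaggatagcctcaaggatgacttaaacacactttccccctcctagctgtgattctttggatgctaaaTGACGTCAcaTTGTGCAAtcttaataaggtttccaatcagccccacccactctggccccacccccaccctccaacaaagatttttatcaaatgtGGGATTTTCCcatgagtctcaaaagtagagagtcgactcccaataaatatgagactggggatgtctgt
The Il6 stretch held 1 match to the NF-kB consensus, 68 to 59 bases before the start, where 3.54% of the 33469 promoters of the table held one. It also held 1 match to the C/EBP motif TTGCNCAA, from 152 to 145 bases before the start (2.29% of promoters). The core ACGTCA of the cyclic AMP response element matched on both strands, in 2 overlapping places between 162 and 155 bases before the start. At least 1 match on either strand was held by 6.95% of promoters, and the share with overlapping matches on both strands was not counted. The Il1b stretch held 1 match to the TATA box TATAAA, 60 to 55 bases before the start (12.9% of promoters). The AP-1 motif TGANTCA (6.34% of promoters) was in neither stretch. These matches describe the letters of the windows and were not tested against the expression values.

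Depth differed between Sham and the rest. Total counts ranged between 13590783 and 14552623 in the Microneedle patch group, 12574300 and 14437712 in the Sutured patch group, 12864218 and 13974505 in MI, and 5443782 and 11757562 in Sham, so that depth and the Sham group cannot be told apart. Sham replicates 4 and 5 had the fewest genes detected, 14079 (at 10753596 counts) and 13635 (at 5443782 counts). Sham replicates 1, 2, 3 and 6 had from 16223 to 16449. Levels are given as CPM, a library's counts scaled to a common total, on library sizes scaled by the TMM method of edgeR, and 3 counts, taken as the detection floor, equalled 0.199 to 0.239 CPM with the microneedle patch, 0.2 to 0.231 CPM with the sutured patch, 0.212 to 0.231 CPM in MI and 0.262 to 0.573 CPM in Sham. Floors and count intervals cover counting error only, since the reads carry no molecular identifiers. Calls were made at an adjusted p below 0.05 with edgeR's quasi-likelihood test, with all 24 libraries in 1 fit and Benjamini-Hochberg adjustment over the 14540 genes of each comparison; every adjusted p below is from this test unless another tool is named. The labels give no batch. In whole tissue, more cells that make a transcript and more transcript per cell cannot be told apart.

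All 3 mediators stood in the same order of mean level, with the sutured patch highest, followed by the microneedle patch, MI and Sham. In MI against Sham 3 of the 3 were called higher, as were 21.6% of all genes tested, so that this count says little about them as a set. Against MI, 3 of the 3 were called higher with the microneedle patch, where 7.12% of all genes were, and 3 of the 3 with the sutured patch, where 2.87% were. Against Sham, 3 of the 3 were called higher with the microneedle patch (25.9% of all genes) and with the sutured patch (24.1%). Between the microneedle and the sutured patch 0 of the 3 were called in edgeR, where 0.316% of all genes were called in either direction; 1 of the 3, Il1b, had an unadjusted p below 0.05, as did 13.7% of all genes. DESeq2 called 0 of the 3 and 2.88% of all genes, and limma-voom with quality weights called Il1b and 5.52% of all genes. Against MI and against Sham, the log2 fold changes of both patches were largest for Il6 and smallest for Ccl2. Where libraries of a group are said below to lie above those of another, the share of all genes with such separation was not counted. Those statements therefore describe the libraries and do not set the genes apart from others.

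**Figure D1:**
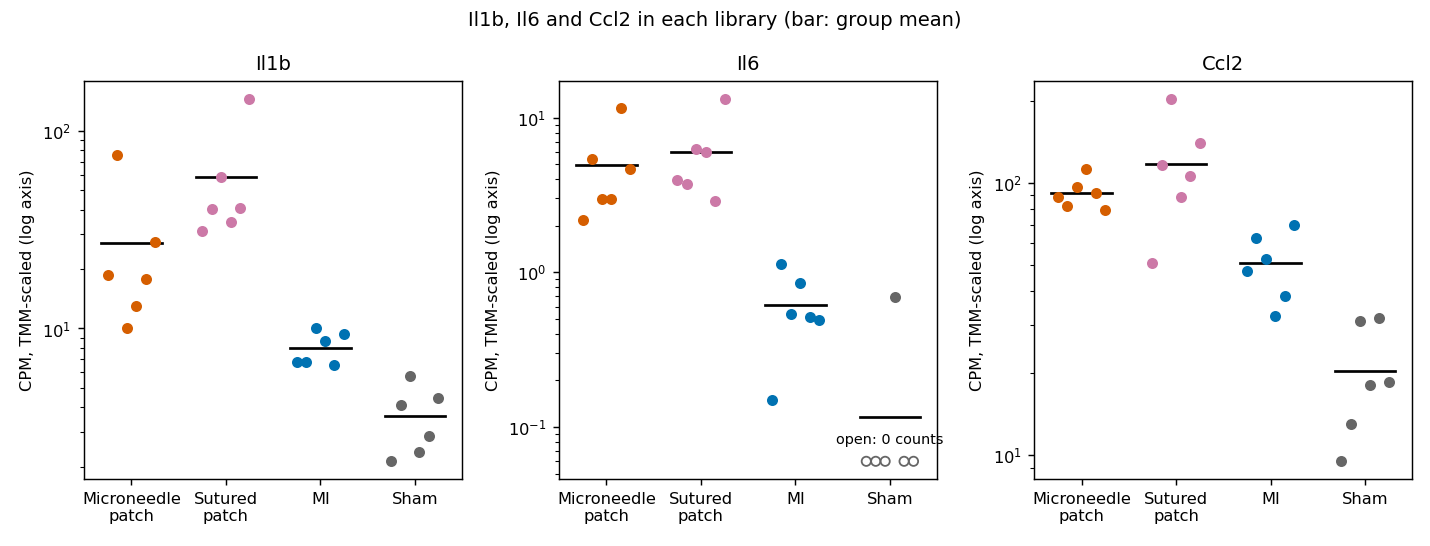
CPM of Il1b, Il6 and Ccl2 (log axis) in the 6 libraries of each group, with bars at the group means. All 12 patch libraries lie above all 6 MI libraries for Il6, and open points mark the 5 Sham libraries with 0 Il6 counts.

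Il1b transcripts were most abundant with the sutured patch. With the microneedle patch the lowest, median and highest library held 10.04, 18.1 and 75.8 CPM, and the mean was 27.1 ± 24.6 CPM (SD, n = 6). With the sutured patch these values were 31.3, 40.6 and 145 CPM, and the mean was 58.4 ± 43.4 CPM (SD, n = 6). In MI they were 6.56, 7.69 and 10.04 CPM around a mean of 8.01 ± 1.52 CPM, and in Sham 2.13, 3.48 and 5.74 CPM around a mean of 3.61 ± 1.4 CPM (SD, n = 6 each). Every sutured patch library lay above every MI library. With the microneedle patch 5 of 6 libraries did so, and replicate 3 stood level with the highest MI library. Both patch groups held 1 library far above the others, microneedle patch replicate 2 at 75.8 CPM and sutured patch replicate 6 at 145 CPM.

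Relative to MI, Il1b rose 3.38-fold with the microneedle patch (log2 fold change 1.75, SE 0.43, adjusted p = 0.00875). Without microneedle patch replicate 2 the log2 fold change was 1.14 (adjusted p = 0.0437); limma-voom with quality weights gave 1.11 (adjusted p = 0.0129). With the sutured patch Il1b rose 7.29-fold over MI (log2 fold change 2.87, SE 0.44, adjusted p = 0.000448). Leaving out sutured patch replicate 6 gave 2.36 (adjusted p = 0.00139). Few genes rose as far: 1.25% of the genes tested had a larger log2 fold change with the microneedle patch and 0.481% with the sutured patch.

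Between the patches, 5 of 6 microneedle libraries held less Il1b than any sutured library. Replicate 2 of the microneedle patch was the exception. The log2 fold change of microneedle over sutured was -1.11 (95% confidence interval -1.97 to -0.26, unadjusted p = 0.0129 in edgeR), and it missed the threshold over all genes (adjusted p = 0.222). It was called by limma-voom with quality weights (log2 fold change -1.45, adjusted p = 0.0113). It was -1.76 without microneedle patch replicate 2 (adjusted p = 0.0557) and -0.60 without sutured patch replicate 6 (adjusted p = 0.495). The size of this difference therefore moved with the highest library of either group.

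Set against Sham, Il1b was 7.44-fold higher with the microneedle patch (log2 fold change 2.90, SE 0.46, adjusted p = 9.85e-06) and 16.1-fold higher with the sutured patch (4.01, SE 0.48, adjusted p = 2.24e-07). Without microneedle patch replicate 2 the first of these log2 fold changes was 2.27 (adjusted p = 1.62e-05), and with limma-voom it was 2.05 (adjusted p = 0.00425). In MI without a patch Il1b was 2.21-fold higher than in Sham (log2 fold change 1.14, SE 0.45, adjusted p = 0.0404), with every MI library above every Sham library. This call was close to the threshold: it was lost when any of MI replicates 3, 4 and 6 or Sham replicates 1, 2, 4 and 5 was left out (adjusted p from 0.0533 to 0.0828), without Sham replicates 4 and 5 together (log2 fold change 0.99, adjusted p = 0.123), with limma-voom (0.94, adjusted p = 0.159), with no filter on low counts (1.16, adjusted p = 0.0519), and with all libraries thinned to the depth of the shallowest (1.07, adjusted p = 0.0673).

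Il6 was the gene closest to absent from Sham tissue and the one with the largest fold changes against Sham and MI. Microneedle patch libraries held from 29 to 163 Il6 counts, sutured patch libraries from 39 to 197 and MI libraries from 2 to 15. Sham held 7 in all (exact 95% Poisson interval 2.81 to 14.4, counting error only), all of them in replicate 4, and the other 5 Sham libraries held 0. As a level, the lowest, median and highest library had 2.18, 3.83 and 11.5 CPM with the microneedle patch (mean 4.96 ± 3.44, SD, n = 6) and 2.87, 4.98 and 13.1 CPM with the sutured patch (mean 5.99 ± 3.76, SD, n = 6). In MI these values were 0.15, 0.526 and 1.14 CPM (mean 0.613 ± 0.338, SD, n = 6), and the single nonzero Sham library had 0.695 CPM. Patch and MI libraries did not overlap, whereas 4 of the 6 MI libraries lay below Sham replicate 4.

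Against MI, Il6 rose 7.99-fold with the microneedle patch (log2 fold change 3.0, SE 0.63, adjusted p = 0.0031) and 9.65-fold with the sutured patch (3.27, SE 0.63, adjusted p = 0.00434). Only 0.303% and 0.323% of the genes tested had a larger log2 fold change in these comparisons. The highest libraries were microneedle patch replicate 5, at 11.5 CPM, and sutured patch replicate 6, at 13.1 CPM. Without microneedle patch replicate 5 the log2 fold change over MI was 2.55 (adjusted p = 0.0085), and without sutured patch replicate 6 it was 2.87 (adjusted p = 0.0159). The patches differed from each other by a log2 fold change of -0.27 (microneedle over sutured, 95% confidence interval -1.42 to 0.87, adjusted p = 0.883), an interval that leaves room for a difference in either direction. Without sutured patch replicate 6 it was 0.12 (adjusted p = 0.954).

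Il6 was called higher than in Sham in each infarct group, but the size of those differences rested on Sham replicate 4. That library, which held all Sham Il6 reads, had fewer genes detected (14079) than Sham replicates 1, 2, 3 and 6. With all libraries the log2 fold change over Sham was 5.22 with the microneedle patch (SE 0.78, adjusted p = 4.45e-06), 5.49 with the sutured patch (SE 0.78, adjusted p = 3.06e-06) and 2.22 in MI (SE 0.82, adjusted p = 0.0304). The fitted log2 fold changes without Sham replicate 4 (8.99, 9.26 and 5.97 for the microneedle patch, the sutured patch and MI) were set against 0 counts, so they depend on the prior count and give no size. With limma-voom they were 6.13, 6.48 and 3.62 over all libraries, in the same order.

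The Il6 call in MI over Sham was lost when any of MI replicates 2 and 4 or Sham replicates 1, 2, 3 and 6 was left out (adjusted p from 0.0541 to 0.0708), and with all libraries thinned to the shallowest (log2 fold change 1.85, adjusted p = 0.103). Both groups held few Il6 reads, and the 95% confidence interval of this log2 fold change ran from 0.53 to 3.91.

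Against MI and against Sham, Ccl2 had the smallest patch differences of the 3 genes, and its within-group spread differed most between the patches. With the microneedle patch the lowest, median and highest library had 79.2, 90.4 and 113 CPM, and the mean was 91.9 ± 11.9 CPM (SD, n = 6). With the sutured patch these values were 50.7, 111 and 203 CPM, with a mean of 117 ± 51.4 CPM (SD, n = 6). In MI they were 32.6, 50 and 69.8 CPM, with a mean of 50.6 ± 14.1 CPM, and in Sham 9.51, 18.4 and 31.9 CPM, with a mean of 20.4 ± 9.22 CPM (SD, n = 6 each). Every microneedle patch library was above every MI library. With the sutured patch 5 of 6 were, and replicate 1 (50.7 CPM) lay inside the MI range.

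Ccl2 rose 1.82-fold over MI with the microneedle patch (log2 fold change 0.86, SE 0.28, adjusted p = 0.0413) and 2.32-fold with the sutured patch (1.21, SE 0.28, adjusted p = 0.0159). The microneedle call was lost when any of microneedle patch replicates 1, 2, 3, 4 and 6 or MI replicates 1, 3, 4 and 5 was left out (adjusted p from 0.0514 to 0.0883), although the log2 fold change stayed between 0.78 and 0.99 over all single-library omissions. It was also lost with no filter on low counts (0.85, adjusted p = 0.0551) and with thinned libraries (0.82, adjusted p = 0.0516). The sutured call was lost without sutured patch replicate 3, the library with the most Ccl2 (log2 fold change 0.98, adjusted p = 0.0504). Between the patches the log2 fold change of microneedle over sutured was -0.35 (95% confidence interval -0.92 to 0.22, adjusted p = 0.624), and the microneedle libraries lay inside the sutured range.

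Unlike Il1b and Il6, Ccl2 kept its call in MI over Sham under all 33 alternatives. It was 2.50-fold higher in MI (log2 fold change 1.32, SE 0.29, adjusted p = 0.000597), and all MI libraries were above all Sham libraries, with 32.6 CPM in the lowest MI library against 31.9 CPM in the highest Sham library. Over Sham it was 4.54-fold higher with the microneedle patch (log2 fold change 2.18, SE 0.29, adjusted p = 9.85e-07) and 5.79-fold higher with the sutured patch (2.53, SE 0.30, adjusted p = 1.81e-07).

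**Figure D2:**
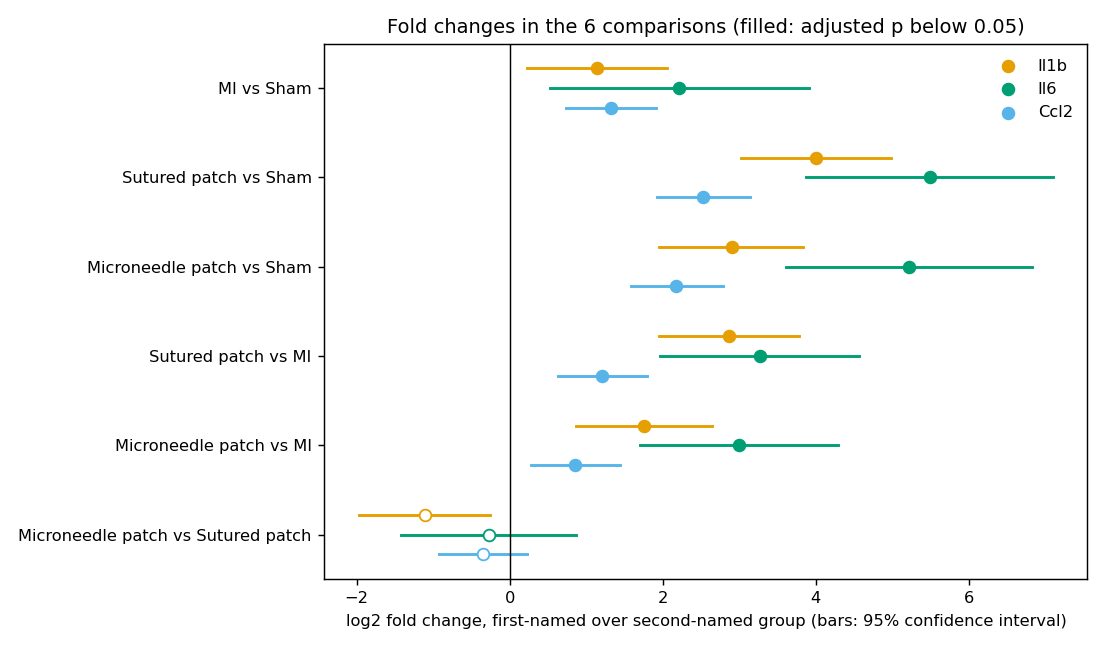
Log2 fold changes of the 3 genes in the 6 comparisons (first-named over second-named group), with 95% confidence intervals; filled points had an adjusted p below 0.05. The 15 values against MI or Sham are filled and above 0, and the 3 between the patches are open.

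The patch differences placed the mediators high among all genes tested. Because genes and comparisons were chosen with earlier results of these data known, this position and that by F below are descriptions. The median log2 fold change of the 3 over MI was 1.75 with the microneedle patch, where that of all genes was 0.021, and 2.87 with the sutured patch, where that of all genes was -0.0016. For Ccl2, 6.02% of genes had a larger log2 fold change with the microneedle patch and 2.84% with the sutured patch. The comparisons against MI share the 6 MI libraries and those against Sham share the 6 Sham libraries, so the calls are not independent of each other.

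**Figure D3:**
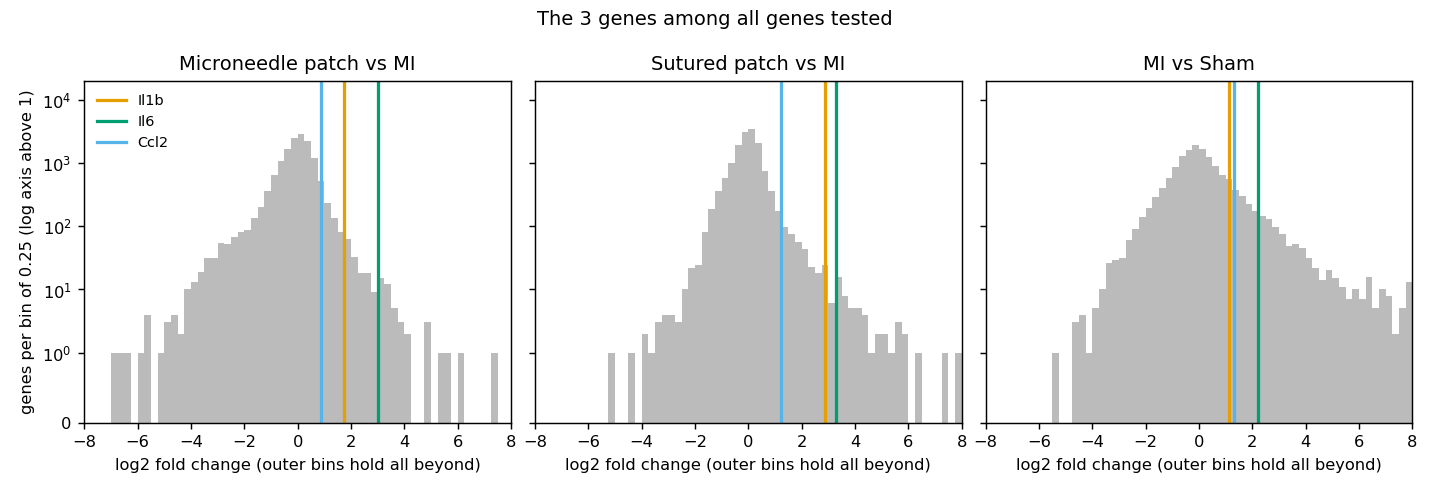
Number of genes per bin of log2 fold change (0.25 wide, log axis) among all genes tested, with lines at Il1b, Il6 and Ccl2. In both patch comparisons with MI the lines of Il1b and Il6 stand in the upper tail, with at most 1.25% of genes above them, while in MI against Sham 14.3% of genes lie above Il1b and 5.52% above Il6.

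A single F test of whether MI and both patch groups share 1 level was called for each gene: Il1b had F = 21.3 (adjusted p = 0.00108), Il6 had F = 14.2 (adjusted p = 0.00447) and Ccl2 had F = 9.4 (adjusted p = 0.0168). Of all genes tested, 11.9% were called in that test. A larger F was found for 0.42% of genes in the case of Il1b, 1.82% for Il6 and 5.56% for Ccl2. None of these 3 calls was lost when any single library was left out, where the highest adjusted p was 0.00427 for Il1b, 0.0171 for Il6 and 0.0469 for Ccl2.

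The counts of the mediators were also set against each other inside each library. For every 100 Ccl2 counts there were on median 20.1 Il1b counts with the microneedle patch (range 10.4 to 92.1), 38.8 with the sutured patch (28.9 to 104), 15.6 in MI (10.7 to 26.5) and 20.4 in Sham (8.98 to 31.4). All sutured patch libraries were above all MI libraries in this ratio, the microneedle libraries overlapped both groups, and the Sham range reached into that of each other group. Ratios with Il6 are given without Sham, where 5 libraries held 0 Il6 counts. Il6 counts per 100 Ccl2 counts had medians of 4.49 with the microneedle patch (2.46 to 12.5), 4.99 with the sutured patch (2.71 to 9.41) and 1.18 in MI (0.316 to 2.61). Il6 counts per 100 Il1b counts had medians of 20 with the microneedle patch (7.15 to 65.2), 9.93 with the sutured patch (7 to 17.5) and 6.60 in MI (2.22 to 16.9), and the 3 ranges overlapped. Counts are not divided by transcript length, so the ratios compare libraries and not the amounts of the transcripts, and no test was run on them.

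**Figure D4:**
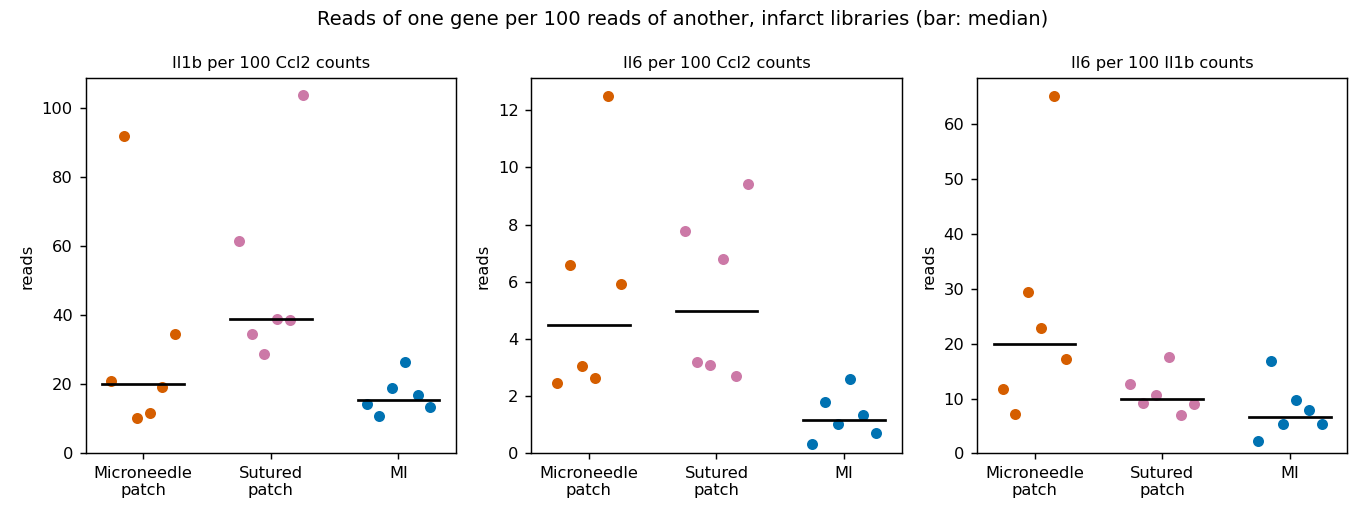
Reads of one mediator per 100 reads of another in each infarct library, by group, with bars at the medians. Il1b per 100 Ccl2 reads is higher in all 6 sutured patch libraries than in any MI library, and single microneedle libraries stand out at 92.1 Il1b per 100 Ccl2 reads (replicate 2) and 65.2 Il6 per 100 Il1b reads (replicate 5).

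The 3 genes did not peak in the same libraries. Sutured patch replicate 6 was the highest sutured library for Il1b and Il6 and the second for Ccl2, at 140 CPM. With the microneedle patch the peaks fell in replicate 2 for Il1b, replicate 5 for Il6 and replicate 4 for Ccl2. Replicate 4, with the most Ccl2 (113 CPM), had 13.1 CPM of Il1b, below 4 of the other 5. Replicate 2, with the most Il1b, had 82.3 CPM of Ccl2, above replicate 6 alone.

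Correlations were computed on log2 CPM within each group of 6 where both genes averaged at least 10 counts, which gave 8 relations. Ccl2 and Il1b ran in opposite directions in the patch groups, with Spearman's rho -0.89 (Pearson's r -0.69, exact permutation p = 0.133) with the microneedle patch and 0.89 (r 0.60, exact permutation p = 0.239) with the sutured patch. Each rho had an exact two-sided permutation p of 0.0333 and an adjusted p of 0.133 over the 8 relations, so neither passed. Without the 2 libraries farthest from the median of Ccl2, r was -0.97 and 0.87, over 4 libraries each. The difference between the groups was not tested. Il1b and Il6 had r = 0.84 with the sutured patch (exact permutation p = 0.0472, adjusted p = 0.378; rho 0.49, exact permutation p = 0.356). That relation rested on the outermost libraries, since r was -0.57 without the 2 farthest. The other 5 relations had exact permutation p-values of at least 0.297.

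Spread within groups differed from gene to gene. As the SD of log2 CPM, Il1b varied by 1.02 with the microneedle patch, where 6.24% of genes varied more, and by 0.815 with the sutured patch, where 12.8% did. In MI its SD was 0.267, and 38.8% of genes varied more. Ccl2 had an SD of 0.181 with the microneedle patch, below the median of all genes (0.347), and 0.67 with the sutured patch, above the median there (0.343). For Il6 the SD was 0.83 with the microneedle patch, 0.759 with the sutured patch and 0.702 in MI, where few reads add counting error. Over all groups, Il6 had a residual SD of 0.827, and 60.6% of the 500 genes nearest to it in abundance varied more. For Il1b (0.718) and Ccl2 (0.528) the shares of such genes that varied more were 16.8% and 15%. These are descriptions, with no test between groups.

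Genes with the most similar within-group pattern were sought by Pearson's r of log2 CPM deviations from the group mean over the 24 libraries, and are given by ID, since the files pair none with a name. Nearest to Il1b was ENSRNOG00000013395 (r = 0.89, rho = 0.75), which had 4.26 ± 5.25 CPM with the microneedle patch, 6.89 ± 6.82 CPM with the sutured patch, 1.25 ± 0.593 CPM in MI and 0.247 ± 0.298 CPM in Sham (SD, n = 6 each). Nearest to Il6 was ENSRNOG00000012208 (r = 0.72, rho = 0.67), at 19.3 ± 4.29, 36.0 ± 27.7, 11.8 ± 2.40 and 6.68 ± 3.65 CPM in the same order of groups. Close behind were ENSRNOG00000009076 (r = 0.69) and ENSRNOG00000027784 (r = 0.68), which were not called against MI with either patch. Their log2 fold changes over MI were 0.18 and 0.12 with the microneedle patch, and 0 and -0.18 with the sutured patch. Each nearest gene has the highest r among 14539 genes, so the size of r partly reflects that search. Nearest to Ccl2 was ENSRNOG00000036604 (r = 0.83, rho = 0.72), with 101 ± 37.3 CPM with the microneedle patch, 295 ± 121 CPM with the sutured patch, 144 ± 62.7 CPM in MI and 780 ± 541 CPM in Sham. Unlike Ccl2, it was lower in each infarct group than in Sham (log2 fold change -2.95 with the microneedle patch, adjusted p = 7.47e-06; -1.4 with the sutured patch, adjusted p = 0.00953; -2.44 in MI, adjusted p = 0.000103). The mediators themselves were not near neighbours of each other by this measure. The r was 0.26 for Il1b with Ccl2, 0.24 for Il1b with Il6 and 0.09 for Il6 with Ccl2. Of all genes, 28.4% were closer to Il1b than Ccl2 was, and 19.9% were closer to Ccl2 than Il1b was. Taken from each gene to each other, such shares ran from 15% (closer to Il6 than Il1b was) to 36% (closer to Il6 than Ccl2 was). All libraries enter each r, so differences in depth and composition are shared by both genes of a pair.

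**Figure D5:**
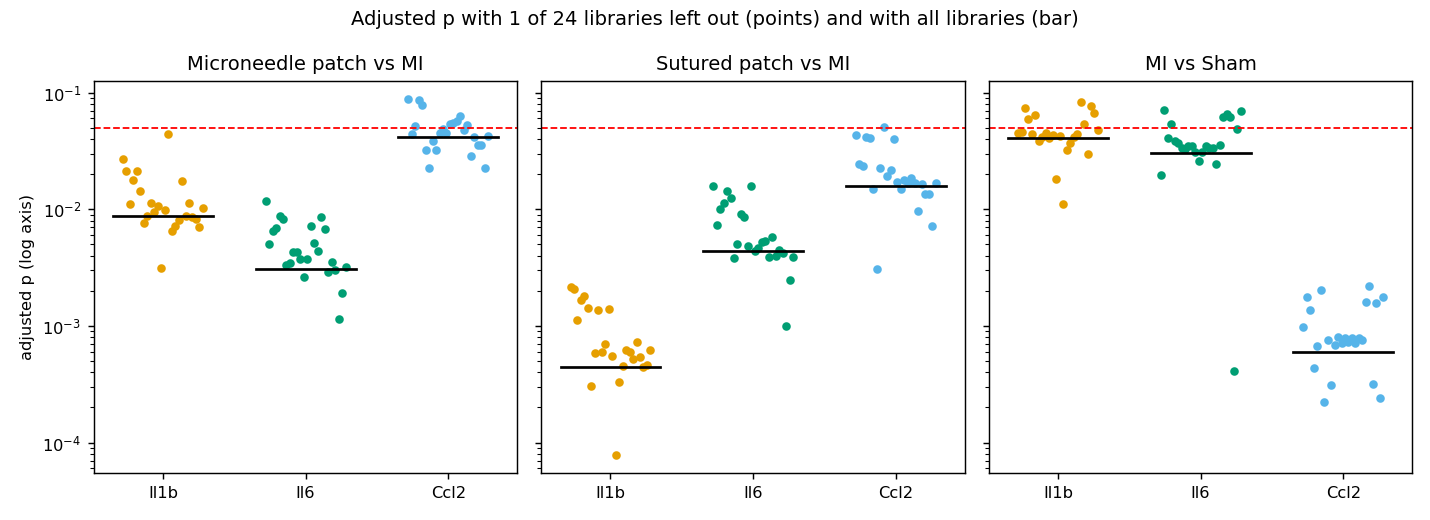
Adjusted p (log axis) of each mediator with 1 of the 24 libraries left out (points) and with all libraries (bars), for the microneedle patch and the sutured patch against MI and for MI against Sham; the dashed line marks 0.05. Il1b and Il6 stay below the line in both patch comparisons in 24 of 24 omissions, whereas Ccl2 crosses it in 9 for the microneedle patch and 1 for the sutured patch, and Il1b and Il6 cross it in 7 and 6 for MI against Sham.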

How the data were processed

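The authors deposited 1 table of raw read counts per Ensembl gene ID, with 1 column per library and 0 columns left unassigned. HISAT2, featureCounts and the build rn6 are named, per the submitters' processing notes. Versions, annotation release, strand and multi-mapping settings are not stated there, so that overlapping, near-identical or antisense genes could share reads. Per the labels' protocols, total RNA was extracted with Trizol and made into NEBNext Ultra libraries. Genes were kept by filterByExpr (minimum count 10) of edgeR 4.0.16 in R 4.3.3, scaled by TMM and fitted with 4 group means over 24 libraries (20 residual degrees of freedom), with robust dispersions and a robust quasi-likelihood test. Standard errors are the absolute log2 fold change over the square root of F; log2 CPM used a prior count of 2. DESeq2 1.42.0 and limma 3.58.1 served as alternatives. The test was also run on counts simulated for MI against Sham from the fitted dispersions. That setting changed few genes, in both directions alike, and does not model single extreme libraries. It therefore says nothing about how the test treats such libraries or changes in many genes, and no result here rests on it. Members, motifs and comparisons were chosen with earlier results of these data known. The most similar gene of each member was taken by highest r, 1 each, and for Il6 the genes ranked next were added. Pathway and cell marker lists by symbol could not be applied. The replicate numbers were taken as not pairing the libraries. No 2 libraries of a group agreed within sampling noise (lowest chi-square per degree of freedom 15.3).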

Additional observations from a re-analysis of the deposited data

Results flagged for a closer look

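Dixon's 95% critical value for 6 libraries was applied to CPM without a log scale. In 5 of the 12 sets of 6 libraries (3 genes in 4 groups), the highest library stood apart by more of the whole range than allowed. The usual rate of about 1 flagged set in 20 holds for normally distributed values, so these flags cannot be set against it. On log2 CPM the gaps took up less of the range, except for Il6 in Sham, where 5 tied libraries leave the gap equal to the range. As an example, Il1b in microneedle patch replicate 2 was 6.25 on log2 CPM, with the next library at 4.78 and the lowest at 3.35. For Il1b the flagged libraries were microneedle patch replicate 2, at 75.8 CPM with the next at 27.3 CPM, and sutured patch replicate 6, at 145 CPM with the next at 58.7 CPM. For Il6 they were microneedle patch replicate 5, at 11.5 CPM with the next at 5.42 CPM, sutured patch replicate 6, at 13.1 CPM with the next at 6.27 CPM, and Sham replicate 4, at 0.695 CPM with the other 5 at 0. The Sham flag was fixed by those 5 zeros, since any nonzero value would raise it, and leaving that set out gives 4 of 11. No Ccl2 library was flagged.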

How the results depend on the processing

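Of the 18 fold changes, 12 kept their direction and their side of the threshold under all alternatives run (33 for each). Leaving out single libraries gave log2 fold changes of 1.02 to 1.32 for Il1b and 1.93 to 5.97 for Il6 in MI against Sham, 0.78 to 0.99 for Ccl2 with the microneedle patch and 0.98 to 1.39 with the sutured patch against MI. Between the patches it gave -1.76 to -0.60 for Il1b and -0.72 to 0.12 for Il6, where 0.12, without sutured patch replicate 6, was the only reversal. Calls of Il1b in MI against Sham were lost with limma-voom (0.94), no filter (1.16, more genes tested), thinned libraries (1.07) and without Sham replicates 4 and 5 (0.99); that of Il6 with thinned libraries (1.85); that of Ccl2 with the microneedle patch against MI with no filter (0.85) and thinned libraries (0.82). Il1b between the patches was gained with limma-voom (-1.45). The causes of these lost and gained calls were not tested. Il6 in MI against Sham missed the filter in the fit of those 2 groups alone and has 32 alternatives.

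Counts of genes called moved more. Microneedle patch against MI called 2112 genes, and 5097 with limma-voom, 4593 with the 2 groups alone, 3804 without Sham replicates 4 and 5 and 1036 to 3482 without single libraries (outside 1.5 times without MI replicate 1, microneedle patch replicates 2 and 6 and Sham replicate 5). Sutured patch against MI called 661, and 1130 with DESeq2, 3148 with limma-voom, 2141 with the 2 groups alone, 1715 without Sham replicates 4 and 5 and 308 to 1408 without single libraries (MI replicates 1, 2, 4 and 5, sutured patch replicates 3, 4 and 6 and Sham replicate 5). Microneedle against sutured patch called 46, and 419 with DESeq2, 802 with limma-voom, 28 with no filter, 499 without Sham replicates 4 and 5 and 0 to 302 without single libraries. The count of 0 in edgeR came without sutured patch replicates 4 or 5 or microneedle patch replicate 2, where 1516, 1630 and 1487 genes had an unadjusted p below 0.05.

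With the replicate number as a block the last count was 159, and no call of the 3 genes changed. Same-numbered libraries of 2 groups had correlations of deviations from -0.14 to 0.44, over 0.1 in 17 of 36 pairs. The correlation was best with the own number in 11 of the 36. Replicate 1 was among these in each pair of the sutured patch, MI and Sham (r 0.37, 0.44 and 0.33). The numbers were taken as not pairing the libraries because not every pair passed 0.1. Whether some same-numbered libraries share a batch was not tested.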
